A study of Homo sapiens with 12 samples.

Results

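Metallothioneins are small proteins so rich in cysteine that they hold zinc, copper and cadmium ions in clusters of sulphur, and they buffer the free metal of the cytoplasm. Their genes are switched on by MTF1, a zinc finger transcription factor that binds metal response elements in promoters when zinc rises, and MTF1 also drives SLC30A1, the zinc exporter of the plasma membrane. In lung epithelium metallothioneins are known for binding inhaled cadmium and for rising with zinc, oxidative stress and glucocorticoids. Levels of 8 genes of this system, chosen by name from the 60617 genes of the count table, are described here. They are 6 metallothioneins (MT1E, MT1F, MT1G, MT1M, MT1X and MT2A), MTF1 and SLC30A1. Of the 8, 5 passed a filter on low counts and were tested, namely MT2A, MT1X, MT1F, SLC30A1 and MTF1.

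The RNA came from A549, a line of human lung adenocarcinoma cells, and 12 libraries were sequenced, 3 for each of 4 groups. The groups were unmodified cells (WT), cells with YTHDF1 knocked out (YTHDF1 KO), cells given small interfering RNA against ARID1A (siARID1A), and knockout cells given that RNA too (combined). YTHDF1 binds N6-methyladenosine in RNA, and ARID1A is a subunit of the SWI/SNF chromatin remodeller. The genotype labels call the YTHDF1 change a knockout where the sample titles call it a knockdown, it is not said whether they were 1 clone or pooled cells, and no control small interfering RNA is named for WT. The titles call the libraries biological replicates without naming separate cultures, so p-values measure the spread between libraries. All groups grew in the same serum-containing medium, and the labels name no added metal.

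Library totals ran from 30220717 to 45042635 counts. Levels are counts per 1e6 (CPM) on totals scaled by the TMM method of edgeR, as mean ± SD over n = 3 libraries unless said otherwise. Over WT, YTHDF1 KO, siARID1A and the combined group, in this order, YTHDF1 averaged 88.2, 24.9, 97.9 and 30.9 CPM and ARID1A 164, 161, 42.5 and 54.2 CPM, so that each target was reduced where its label says so. WT replicate 2 differed more from the other WT libraries (chi-square per degree of freedom of 58.1 and 56.0) than any other pair within a group did (3.47 to 14.4), and no call of the 5 genes tested changed when it was left out. Of 5 epithelial markers, KRT8, KRT18 and CDH1 were abundant, EPCAM was low and KRT19 was near 0 in WT, and their summed level, carried by KRT8 and KRT18, was 5947 to 7988 CPM in WT and 4810 to 6524 in siARID1A, but 2368 to 2563 in YTHDF1 KO and 2922 to 3141 in the combined group. CDH1, the adhesion protein E-cadherin, averaged 41.6 CPM in YTHDF1 KO and 171 in siARID1A, and it ran from 108 to 110.1 in the combined group beside 102 to 107 in WT. The 6 markers of blood, endothelium and liver summed to at most 2.03 CPM in any library. In bulk RNA, fewer cells of a kind and less RNA per cell cannot be told apart.

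The 6 metallothionein genes stand in 1 cluster on chromosome 16 (GRCh38 positions from GENCODE 29). MT2A runs from 56608199 to 56609497, MT1E from 56625475 to 56627112, MT1M from 56632233 to 56633986, MT1F from 56657694 to 56660698 and MT1X from 56682424 to 56684196, all on the plus strand. MT1G, from 56666731 to 56668065, is on the minus strand. MTF1 (37809567 to 37859620) and SLC30A1 (211571568 to 211578742) are on the minus strand of chromosome 1. Each metallothionein coding sequence has 183 bases, or 61 codons without the stop codon, of which 20 (32.8%) are cysteine codons, and these stood at the same positions in all 15 pairs of the 6 genes. The coding sequences of the 3 metallothioneins with enough counts for a test are given from the GENCODE 29 transcripts, with the cysteine codons in capitals, to show how alike the counted transcripts are.
MT2A: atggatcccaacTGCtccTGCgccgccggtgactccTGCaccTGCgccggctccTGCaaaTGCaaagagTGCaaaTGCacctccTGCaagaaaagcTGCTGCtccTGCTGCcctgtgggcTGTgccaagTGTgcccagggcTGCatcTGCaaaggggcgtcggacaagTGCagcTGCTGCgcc
MT1X: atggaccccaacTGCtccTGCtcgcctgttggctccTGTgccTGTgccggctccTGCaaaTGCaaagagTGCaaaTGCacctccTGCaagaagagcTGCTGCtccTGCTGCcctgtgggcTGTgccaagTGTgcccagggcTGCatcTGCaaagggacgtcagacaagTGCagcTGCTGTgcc
MT1F: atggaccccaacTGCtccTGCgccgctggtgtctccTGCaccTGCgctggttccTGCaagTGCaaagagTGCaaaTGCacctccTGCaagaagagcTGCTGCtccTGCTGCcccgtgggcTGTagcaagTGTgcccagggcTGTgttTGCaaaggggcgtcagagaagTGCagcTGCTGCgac

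Between these 3, MT2A and MT1X shared 92.3% of the coding bases, MT2A and MT1F 91.3%, and MT1F and MT1X 88.5%, the lowest of the 15 pairs. The highest identity was 95.1%, between MT1G and MT2A. Reads from such copies can be split or lost in counting, which was not measured. The likeness of the sequences is described by the share of 50-base words of the main transcript that occur in a transcript of another gene. That share was 4.88% for MT2A, 3.59% for MT1F, 5.34% for MT1E, 7.05% for MT1M, 20.2% for MT1G and 45.1% for MT1X. The high share of MT1X came largely from AC026461.1, a same-strand gene that covers 165 of the 450 bases (36.7%) of its main transcript and had 0 counts in every library, and without it the share was 15.96%. Levels of MT1X are therefore uncertain, while MTF1 (0.644%) and SLC30A1 (0%) had almost no shared words.

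RefSeq promoter windows (GRCh38.p14, 250 bases before to 50 bases after the gene start) were matched for 4 of the 8 genes, MT2A, MT1X, SLC30A1 and MTF1. They were searched on both strands for the core of the metal response element, TGCACNC or TGCGCNC, because this is the letter pattern that MTF1 recognises. MT2A held 8 cores, a number reached by 0.0199% of all 35116 windows, and 7 of them lay before the RefSeq start. MT1X held 4 (0.601% of windows had as many), SLC30A1 held 2 (8.6%) and MTF1 held 0, while 29.6% of all windows held at least 1. The sequences are given 5′ to 3′ along each gene with the cores, on either strand, in capitals. Those of MT2A are short windows that hold the 7 cores before its RefSeq start, in 6 pieces. They lie inside MT2A as placed by GENCODE 29, where it starts at 56608199. That of MT1X is the part of its window before the start in GENCODE 29, which holds its 4 cores. That of SLC30A1 is the 250 bases before the RefSeq start, which hold 1 of its 2 cores. The other core, at 211579131 to 211579137, lies after that start. Both cores lie before SLC30A1 as placed by GENCODE 29, where it starts at 211578742 on the minus strand.
MT2A, chr16:56608335-56608347, plus strand: cgcTGCACCCagc
MT2A, chr16:56608413-56608440, plus strand: cccGTGTGCAgagccgggTGCGCCCggc
MT2A, chr16:56608442-56608454, plus strand: cagTGCGCGCggc
MT2A, chr16:56608493-56608505, plus strand: ggcGTGTGCAggc
MT2A, chr16:56608527-56608539, plus strand: tttTGCACTCgtc
MT2A, chr16:56608573-56608583, plus strand: cgcTGCACTCc
MT1X, chr16:56682220-56682423, plus strand: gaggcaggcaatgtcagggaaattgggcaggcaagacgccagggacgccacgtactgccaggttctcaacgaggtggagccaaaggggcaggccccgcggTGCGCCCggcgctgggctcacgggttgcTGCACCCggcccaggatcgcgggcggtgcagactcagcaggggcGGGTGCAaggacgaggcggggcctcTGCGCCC
SLC30A1, chr1:211579162-211579411, minus strand: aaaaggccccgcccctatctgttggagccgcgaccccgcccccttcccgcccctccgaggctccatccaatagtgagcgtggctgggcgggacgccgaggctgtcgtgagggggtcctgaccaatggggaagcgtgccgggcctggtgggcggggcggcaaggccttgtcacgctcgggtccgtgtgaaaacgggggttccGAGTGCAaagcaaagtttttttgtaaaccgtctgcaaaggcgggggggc

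MT2A, MT1X and SLC30A1 also held 1 core each of the antioxidant response element (TGACNNNGC, either strand), the pattern bound by NRF2, which 13.3% of all windows held. These matches describe letters only, and binding was not measured. By mean level, MT2A was highest in YTHDF1 KO, MT1X in WT and SLC30A1 in the combined group. MT1X overlapped between WT and YTHDF1 KO, and SLC30A1 in the combined group did not pass the test against siARID1A. With siARID1A against WT, MT2A and MT1X both fell and SLC30A1 rose. The part of the cores in these levels was not tested.

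MT2A, the most widely expressed human metallothionein, carried nearly all of the metallothionein signal. It made up 91.6% to 98.2% of the summed counts of the 6 genes over the 12 libraries. Per kilobase of all annotated exon, MT2A stood at 31.1 ± 5.64 CPM per kilobase in WT, above SLC30A1 at 16.6 ± 0.350 and MTF1 at 3.17 ± 0.152. MT1X at 0.898 ± 0.0478 and MT1F at 0.641 ± 0.0961 CPM per kilobase were lower in the same libraries. This order depends on the length used, a point examined after the values were seen. Per kilobase of the main transcript alone, MT2A stood at 51.5 ± 9.32, SLC30A1 at 16.6 ± 0.350, MT1X at 3.54 ± 0.188, MTF1 at 3.19 ± 0.153 and MT1F at 1.75 ± 0.263 CPM per kilobase, so that MT1X and MTF1 changed places. In YTHDF1 KO the level of MT2A reached 78.4 ± 8.79 CPM per kilobase of all annotated exon.

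MT2A read 48.3, 33.9 and 39.2 CPM in WT replicates 1 to 3, and 98.6, 114 and 92.4 CPM in YTHDF1 KO. It read 31.4, 30.2 and 24.8 CPM in siARID1A and 41.4, 50.1 and 41.5 CPM in the combined group. Every knockout library without siARID1A was above every other library, every siARID1A library was below every WT library, and the combined group overlapped WT. Means were 102 ± 11.4 CPM in YTHDF1 KO, 44.3 ± 5.00 in the combined group, 40.5 ± 7.32 in WT and 28.8 ± 3.51 in siARID1A, in falling order.

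**Figure D1:**
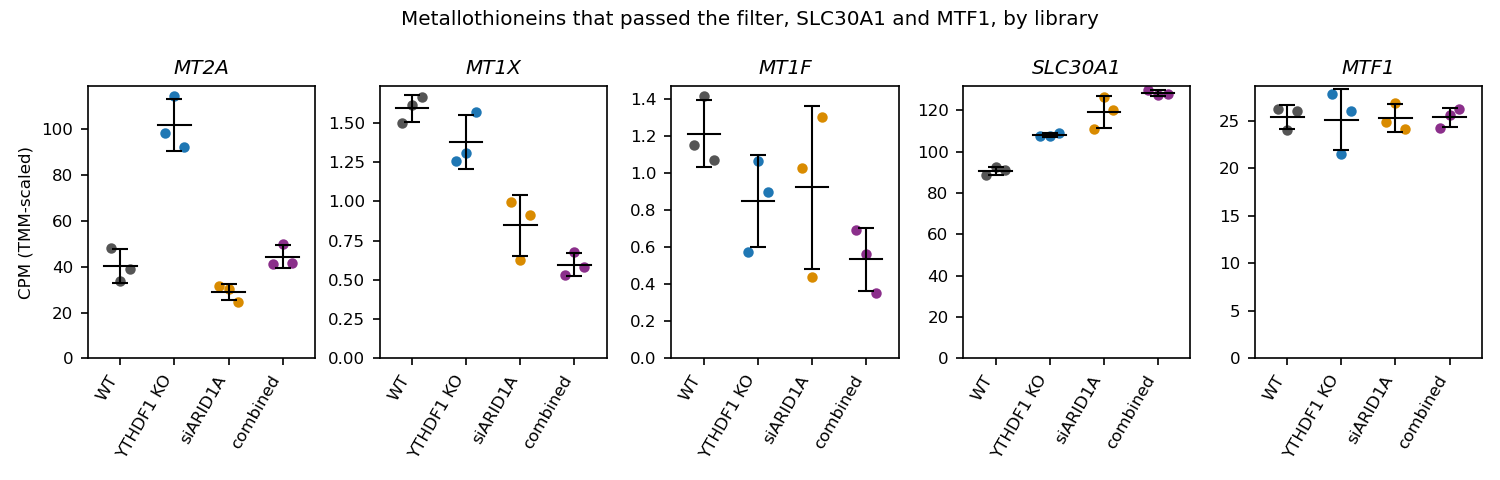
CPM of the 5 genes tested, 1 point per library, with the mean (long line) and SD (bars) of 3 libraries per group. All axes start at 0 and differ in range. MT2A in YTHDF1 KO (92.4 to 114 CPM) stands above all other groups, SLC30A1 is lowest in WT, and MTF1 overlaps in all 4 groups.

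MT2A rose in YTHDF1 KO by 1.33 ± 0.17 (log2 fold change ± SE) over WT, or 2.52-fold (adjusted p = 7.16e-08, edgeR quasi-likelihood F test with Benjamini-Hochberg adjustment over 18524 genes). All adjusted p-values of the main fit are of this kind. Those with a library left out or under another setting are adjusted over the genes of that run, and those of count ratios over the ratio comparisons. With siARID1A MT2A fell by 0.49 ± 0.18 on the log2 scale, to 71.3% of the WT level (adjusted p = 0.00396). The combined group did not pass the test against WT (log2 fold change 0.13 ± 0.17, adjusted p = 0.389). Against its single-change neighbours the combined group was intermediate. It was lower than YTHDF1 KO by a log2 fold change of -1.20 ± 0.13 (adjusted p = 1.07e-06) and higher than siARID1A by 0.62 ± 0.14 (adjusted p = 0.00069).

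The change of MT2A with siARID1A thus depended on the YTHDF1 background. It was -1.20 in knockout cells and -0.49 in WT cells on the log2 scale, an interaction of -0.71 ± 0.22 (adjusted p = 0.00836). Added on the log2 scale, the single changes of MT2A gave 0.84, and the combined group differed from WT by 0.13. MT2A stayed past the threshold in the interaction when any 1 of the 12 libraries was left out, with values from -0.86 to -0.62. Against WT, the combined group passed the test without WT replicate 1 (0.28, adjusted p = 0.0457) and with unscaled library totals (0.28, adjusted p = 0.0283), so this call depended on the scaling and on 1 library. Without WT replicate 2, the library that stood apart, MT2A differed from WT by 1.23 for YTHDF1 KO, -0.58 for siARID1A and 0.03 for the combined group, and the interaction was -0.62 (adjusted p of 4.45e-09, 0.000173, 0.873 and 0.00463). Library totals in place of TMM factors moved the median of all genes by 0.135 (log2) in that comparison. The epithelial marker sum, mostly KRT8 and KRT18, was also lower in both groups with the knockout, while CDH1 was lower than in WT only for YTHDF1 KO alone. The part of these markers in the differences was not tested.

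MT1X, a metallothionein 1 gene at the far end of the cluster, moved in another order. It read 1.499, 1.61 and 1.66 CPM in WT and 1.26, 1.31 and 1.57 CPM in YTHDF1 KO. It read 0.997, 0.627 and 0.917 CPM in siARID1A and 0.533, 0.680 and 0.580 CPM in the combined group. Both groups given siARID1A lay below both groups without it, with no overlap, and the groups overlapped within each of these pairs. These values rest on 17 to 73 counts per library, against 840 to 4733 counts for MT2A.

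MT1X fell with siARID1A by 0.91 ± 0.20 on the log2 scale, to 53.4% of WT (adjusted p = 0.0144). It fell in the combined group to 37.9% of WT (log2 fold change -1.40 ± 0.10, adjusted p = 0.000379) and to 43.7% of YTHDF1 KO (-1.19 ± 0.13, adjusted p = 0.00513). Without WT replicate 2 these falls against WT were -0.87 and -1.38 (adjusted p of 0.0373 and 0.0012). The fall with siARID1A against WT was no longer past the threshold without siARID1A replicate 2 (-0.74, adjusted p = 0.0732) or with no filter on low counts (-0.89, adjusted p = 0.0519). In YTHDF1 KO, where MT2A rose, MT1X changed by -0.21 ± 0.11 against WT and was not called (adjusted p = 0.596). The combined group and siARID1A did not differ past the threshold (-0.50 ± 0.21, adjusted p = 0.246), and the interaction was -0.29 ± 0.24 (adjusted p = 0.718).

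The ratio of MT2A to MT1X counts within a library needs no scaling between libraries. It was 32.2, 21.0 and 23.5 in WT and 31.5, 48.2 and 27.1 in siARID1A, and it was 78.4, 87.6 and 58.7 in YTHDF1 KO and 77.6, 73.7 and 71.6 in the combined group. Every library with the knockout was above every library without it. The log2 ratio differed from WT by 1.56 ± 0.25 in YTHDF1 KO and by 1.56 ± 0.19 in the combined group (2-sided exact permutation p = 0.1 each, the smallest p that 3 against 3 libraries allow, and 0.143 after adjustment over 10 ratio comparisons). This ratio was chosen after its values were seen.

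MT1F, another metallothionein 1 gene, read 1.15, 1.42 and 1.07 CPM in WT and 0.576, 1.06 and 0.899 CPM in YTHDF1 KO. It read 1.03, 0.439 and 1.30 CPM in siARID1A and 0.690, 0.563 and 0.353 CPM in the combined group. The spread within siARID1A, from 14 to 44 counts, spanned most of the range of the other groups. MT1F fell in the combined group to 43.8% of WT (log2 fold change -1.19 ± 0.28, adjusted p = 0.0143), with no overlap between those groups, and this call was lost without combined replicate 3 (adjusted p = 0.077) and held without WT replicate 2 (-1.05, adjusted p = 0.0457). Its log2 fold change against WT was -0.52 ± 0.27 in YTHDF1 KO (adjusted p = 0.296) and -0.39 ± 0.46 in siARID1A (adjusted p = 0.428), and neither was called. Against siARID1A the combined group was not called (-0.80 ± 0.51, adjusted p = 0.137), but passed without siARID1A replicate 2 (-1.13, adjusted p = 0.0329). All 12 counts of MT1F were even numbers, and among all genes 60.8% of values from 11 to 100 were even. How the mates of a read pair were counted is not given in the sources used here, so the number of molecules behind the low counts may be smaller than the counts.

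MT1E, MT1G and MT1M were at or near the floor. MT1E had 4 counts in WT replicate 2 and 0 in the other 11 libraries, and MT1G and MT1M had 0 counts in all 12. A group total of 3 counts, taken as the limit that 0 counts allow, corresponds to 0.0256 CPM for WT, 0.0261 for YTHDF1 KO, 0.0304 for siARID1A and 0.0263 for the combined group. No difference between groups was detectable for these 3 genes at this depth.

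**Figure D2:**
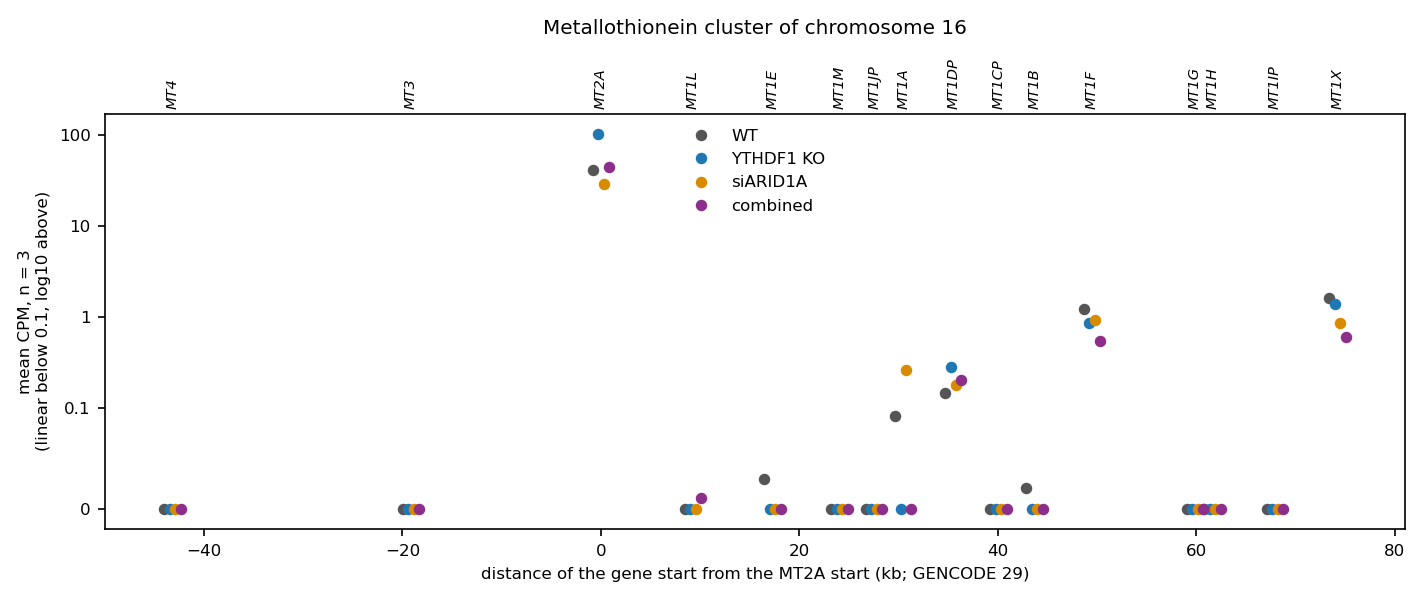
Mean CPM of 3 libraries per group for each metallothionein gene and pseudogene of the cluster on chromosome 16, placed by the distance of its start from that of MT2A in kilobases. The vertical axis is linear below 0.1 CPM and log10 above. MT2A stands at 28.8 to 102 CPM, MT1X and MT1F lie between 0.535 and 1.59 CPM, and most other genes are at 0.

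Another 15 metallothionein genes and pseudogenes were looked up, of which 8 had 0 counts in every library and 1, the pseudogene MT1DP, was tested and called in no comparison. The highest level of any of the 15 in a library was 0.532 CPM. MT1A, a further metallothionein 1 gene, was not tested, and its 38 counts came from 5 libraries, with 10, 6 and 10 counts in siARID1A, 4 and 8 in WT replicates 1 and 2, and 0 in every library with the knockout.

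SLC30A1, the exporter that moves zinc out of the cell, rose with each change. It read 88.7, 92.5 and 91.3 CPM in WT and 107.7, 107.7 and 109 CPM in YTHDF1 KO. It read 111, 127 and 120.3 CPM in siARID1A and 129.8, 127 and 128 CPM in the combined group. The 3 other groups lay above WT with no overlap, siARID1A lay above YTHDF1 KO with no overlap (a difference that was not tested), and the combined group lay just above siARID1A.

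SLC30A1 rose by a log2 fold change of 0.25 ± 0.02 in YTHDF1 KO (adjusted p = 0.00266), by 0.39 ± 0.06 in siARID1A (adjusted p = 1.97e-05) and by 0.50 ± 0.02 in the combined group (1.41-fold, adjusted p = 4.39e-07), each against WT. The combined group was higher than YTHDF1 KO by 0.25 ± 0.01 (adjusted p = 0.00568). It did not pass the test against siARID1A (0.11 ± 0.06, adjusted p = 0.215), although it did with unscaled library totals (0.18, adjusted p = 0.0435). The interaction was -0.15 ± 0.06 and was not called (adjusted p = 0.309). In the combined group SLC30A1 stood above WT, and MT2A did not pass the test. The ratio of MT2A to SLC30A1 counts ran from 0.366 to 0.545 in WT and from 0.319 to 0.393 in the combined group, with overlap. Its log2 value differed by -0.36 ± 0.19 (2-sided exact permutation p = 0.2, and 0.25 after adjustment over 10 ratio comparisons). A difference between these genes in their change was therefore not shown.

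MTF1, the metal sensor itself, had the same level in all 4 groups within its spread. It read 26.2, 24.01 and 26.0 CPM in WT and 27.8, 21.6 and 26.0 in YTHDF1 KO, and 24.3, 25.6 and 26.2 in the combined group and 24.9, 26.9 and 24.1 in siARID1A, so that all groups overlapped. Its log2 fold changes against WT were -0.02 ± 0.12 for YTHDF1 KO, -0.01 ± 0.06 for siARID1A and -0.0013 ± 0.05 for the combined group (adjusted p of 0.906, 0.970 and 0.993), and their sign turned with the scaling. The RNA level says nothing of the activity of the protein, which responds to zinc.

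**Figure D3:**
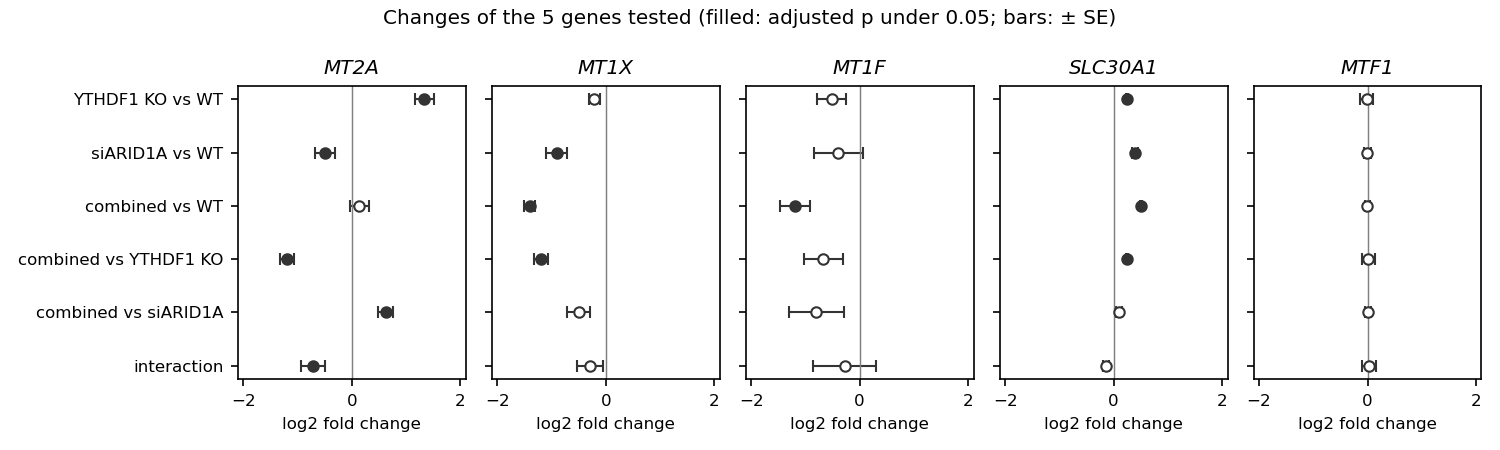
Log2 fold changes (horizontal axis) of the 5 genes tested in 5 pairwise comparisons and the interaction, with bars of ± 1 SE. Filled points passed an adjusted p of 0.05. MT2A lies on both sides of 0, from 1.33 in YTHDF1 KO to -1.20 in combined against YTHDF1 KO. MT1X and MT1F lie below 0, and SLC30A1 is called higher in 4 comparisons. MTF1 runs from -0.017 ± 0.12 in YTHDF1 KO against WT to 0.021 ± 0.13 in the interaction.

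Each comparison changed many genes, so the calls among these 5 are set beside the share of all genes tested that passed. In YTHDF1 KO against WT 2 of the 5 rose and 0 fell, where 40.4% of all genes tested were called (19.6% higher and 20.8% lower). In siARID1A against WT 1 rose and 2 fell, where 45.2% were called (22.1% higher and 23% lower). In the combined group against WT 1 rose and 2 fell, where 51.5% were called (25.6% higher and 25.9% lower). Against YTHDF1 KO the combined group had 1 higher and 2 lower, with 23.4% of genes called (12.5% higher and 10.9% lower). Against siARID1A it had 1 higher and 0 lower, with 35.4% called (18.2% higher and 17.2% lower). In the interaction 1 of the 5, MT2A, was called, as a negative value, where 17.1% of genes were called (8.87% positive and 8.22% negative). The median log2 fold change of the 5 against WT was -0.02 for YTHDF1 KO, -0.39 for siARID1A and -0.0013 for the combined group, beside -0.01, -0.01 and -0.01 over all genes.

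The genes whose level over the 12 libraries was most like that of the summed metallothioneins were sought among 9514 genes with a mean of at least 10 CPM. TUBA1A, an alpha-tubulin, had the highest Pearson correlation of log2 CPM (r = 0.975), followed by NME3, a nucleoside diphosphate kinase (0.962), CENPB, a centromere protein (0.962), CCDC47, a protein of the endoplasmic reticulum (0.961), and LRRC8C, a subunit of the volume-regulated anion channel (0.957). These are descriptions over 12 libraries that share their groups and their scaling. TUBA1A was at 167 ± 14.3 CPM in YTHDF1 KO, 109 ± 12.7 in the combined group, 98.4 ± 10.9 in WT and 88.4 ± 9.04 in siARID1A. This is the order of groups of MT2A over a narrower range, and TUBA1A was picked for that likeness. Against WT, TUBA1A was not called in siARID1A or in the combined group (adjusted p of 0.195 and 0.180).

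Zinc reaches metallothioneins through importers of the SLC39 family and leaves the cytoplasm through exporters of the SLC30 family. Of 9 SLC30 genes other than SLC30A1, 6 were tested. Against WT 2 rose and 1 fell in YTHDF1 KO, and 3 rose and 1 fell in each of siARID1A and the combined group. The shares of all genes tested that were called in these comparisons were 40.4%, 45.2% and 51.5%, in the same order. SLC30A4, an exporter that loads zinc into vesicles, rose with SLC30A1 in YTHDF1 KO (0.38 ± 0.09, adjusted p = 0.0444) and in the combined group (0.67 ± 0.15, adjusted p = 0.000522). SLC30A3, a vesicular exporter known from synapses, went the other way, from 3.14 ± 0.610 CPM in WT to 1.48 ± 0.284 in YTHDF1 KO (-1.09 ± 0.22, adjusted p = 0.00243). It was also lower than WT in siARID1A (-0.67 ± 0.26, adjusted p = 0.0469) and in the combined group (-0.90 ± 0.36, adjusted p = 0.00757). SLC30A9, a mitochondrial zinc exporter, rose by 0.26 ± 0.07 in YTHDF1 KO (adjusted p = 0.00639), by 0.19 ± 0.08 in siARID1A (adjusted p = 0.0342) and by 0.35 ± 0.07 in the combined group (adjusted p = 0.00029).

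Of 14 SLC39 genes, 11 were tested. Against WT 5 rose and 1 fell in YTHDF1 KO, and 5 rose and 3 fell in siARID1A. In the combined group 5 rose and 2 fell. Over all genes tested, 40.4%, 45.2% and 51.5% were called in these comparisons, in the same order. The median log2 fold changes of the 11 were 0.21, 0.20 and 0.13, beside -0.01 over all genes in each comparison. SLC39A8, an importer of zinc, manganese and cadmium, read 23.2, 21.3 and 26.9 CPM in WT, where it was lowest. It read 63.4, 67.2 and 69.0 CPM in YTHDF1 KO, 119, 108 and 123 in the combined group and 70.2, 79.1 and 61.5 in siARID1A. It rose in each of the 3 groups against WT, by 1.49 ± 0.10, 1.56 ± 0.14 and 2.30 ± 0.11 on the log2 scale (adjusted p of 1.59e-12, 1.4e-12 and 2.99e-16), and like SLC30A1 it was highest in the combined group. SLC39A14, an importer of zinc, iron and manganese, fell in siARID1A from 345 ± 19.9 CPM in WT to 194 ± 15.8 (-0.83 ± 0.08, adjusted p = 3.64e-09), and to a similar level in the combined group (-0.84 ± 0.09, adjusted p = 1.42e-09). SLC39A11, another zinc importer, rose from 21.2 ± 1.48 CPM in WT to 39.5 ± 1.06 in YTHDF1 KO (0.90 ± 0.06, adjusted p = 7.69e-09). It also rose against WT in siARID1A (0.46 ± 0.11, adjusted p = 0.000173) and in the combined group (0.95 ± 0.07, adjusted p = 1.95e-09).

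**Figure D4:**
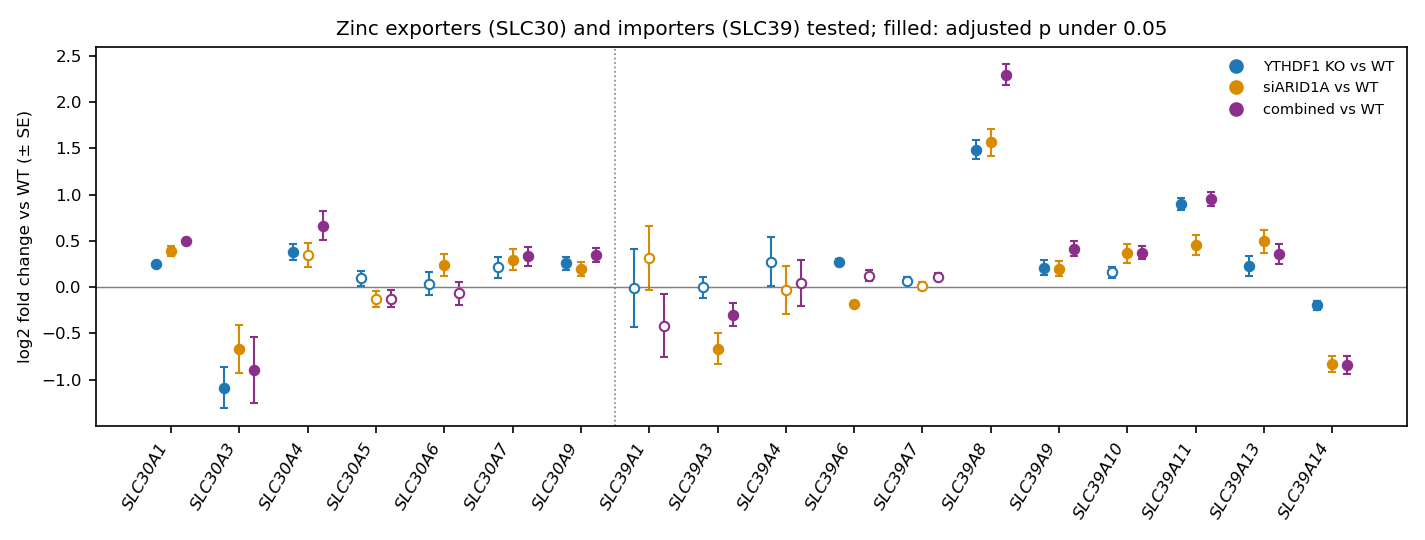
Log2 fold changes against WT (vertical axis, ± SE) of SLC30A1, the 6 other SLC30 exporters and the 11 SLC39 importers tested, in YTHDF1 KO, siARID1A and the combined group. Filled points passed an adjusted p of 0.05. SLC39A8 stands highest, at 1.49, 1.56 and 2.30, and SLC30A3 and SLC39A14 lie below 0 in all 3 groups.

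Genes of other metals that metallothioneins bind or that share their inducers are given for comparison. Of 12 genes of copper handling, 11 were tested. Against WT 2 rose and 3 fell in YTHDF1 KO, and 3 rose and 3 fell in each of siARID1A and the combined group. Of all genes tested, 40.4%, 45.2% and 51.5% were called in these comparisons, in the same order. SLC31A1, the copper importer, fell in YTHDF1 KO, siARID1A and the combined group (log2 fold changes of -0.75 ± 0.03, -0.52 ± 0.04 and -0.63 ± 0.06, adjusted p of 5.52e-09, 1.63e-06 and 5.64e-08, in this order). STEAP3, a metal reductase, fell from 140 ± 6.47 CPM in WT to 35.6 ± 1.30 in the combined group (-1.97 ± 0.05, adjusted p = 2.37e-16). Its level was 67.4 ± 2.75 CPM in YTHDF1 KO and 75.1 ± 8.67 CPM in siARID1A. Of 12 genes of iron handling, 11 were tested. Against WT 0 rose and 7 fell in YTHDF1 KO, where 19.6% of all genes rose and 20.8% fell. In siARID1A 2 rose and 3 fell (22.1% and 23% of all genes). In the combined group 1 rose and 6 fell (25.6% and 25.9% of all genes). SLC39A14 stands in both the SLC39 and the iron list. SLC40A1, the iron exporter, was at 19.3 ± 1.14 CPM in WT and 4.43 ± 0.435 in YTHDF1 KO (-2.12 ± 0.10, adjusted p = 3.03e-12).

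Of 12 heavy-metal and oxidative stress responders 10 were tested. Against WT 3 rose and 3 fell in YTHDF1 KO, and 5 rose and 1 fell in siARID1A. In the combined group 4 rose and 4 fell. Over all genes tested, 40.4%, 45.2% and 51.5% were called in these comparisons, in the same order. HMOX1, the heme oxygenase that cadmium and heme induce, read 297, 257 and 272 CPM in WT and 276, 301 and 289 in YTHDF1 KO, where MT2A rose, and it was not called there (0.07 ± 0.07, adjusted p = 0.593). In siARID1A, where MT2A fell, HMOX1 read 1531, 1961 and 1567 CPM (2.61 ± 0.13, adjusted p = 6.27e-16). In the combined group, where MT2A did not pass the test against WT, HMOX1 read 830, 684 and 790 CPM. Of 13 glucocorticoid-responsive genes 12 were tested, and 5 rose and 2 fell in YTHDF1 KO, with ANGPTL4 higher (1.08 ± 0.11, adjusted p = 5.34e-08) and DUSP1 lower (-1.30 ± 0.07, adjusted p = 7.54e-13). Against WT 5 rose and 2 fell in siARID1A, and 6 rose and 2 fell in the combined group. The shares of all genes called were those given above for the stress responders.

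Of 10 genes that flank the cluster on chromosome 16, 8 were tested. In YTHDF1 KO against WT 2 rose and 0 fell, with a median log2 fold change of 0.02 (19.6% of all genes rose and 20.8% fell). In siARID1A against WT 1 rose and 3 fell, with a median of -0.13 (22.1% of all genes rose and 23% fell). The combined group had 1 higher and 2 lower, with a median of -0.02 (25.6% and 25.9% of all genes). BBS2, a neighbour with its start at -87.9 kilobases from that of MT2A, rose by 0.31 ± 0.13 in YTHDF1 KO (adjusted p = 0.00896), where MT2A rose by 1.33. HERPUD1, 324 kilobases beyond the MT2A start, fell with siARID1A as MT2A did (-0.70 ± 0.10, adjusted p = 4.39e-08) and was at -0.01 ± 0.10 in YTHDF1 KO (adjusted p = 0.907).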

How the data were processed

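RNA-seq was done on 12 libraries of A549 cells, made from total RNA with a stranded kit per the labels' protocols. The authors deposited 1 table of raw read counts per Ensembl gene, and the submitters' processing notes list Trim Galore 0.6.6, STAR 2.7.0d, featureCounts 2.0.1, edgeR 3.32.1 and GRCh38. The strand setting of the counting and the annotation release are not given in the sources used here, so counts of overlapping or near-identical genes are uncertain.

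The counts of all 12 libraries were fitted together in R 4.3.3 with edgeR 4.0.16 (1 coefficient per group, TMM factors 0.912 to 1.055, filterByExpr leaving 18524 of 60617 genes, robust quasi-likelihood F test, two-sided, Benjamini-Hochberg adjustment over the genes tested, threshold 0.05). The biological coefficient of variation was 9.44%. Standard errors come from replicate SDs of log2 CPM with a prior count of 2. The interaction is the change with siARID1A in YTHDF1 KO minus that in WT. The test was tried on simulated counts. Alternatives were RLE factors, unscaled totals, no filter, only the groups compared, a replicate block, DESeq2 1.42.0 and leaving out each library.

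The 8 genes and all lists were chosen with earlier results of these data known. Named genes were the 8, both targets, up to 3 genes per list with a mean of at least 1 CPM that were called in a pairwise comparison and had the largest fold change, and the 5 genes most like the summed metallothioneins. Coding sequences and positions are from GENCODE 29, promoters from RefSeq (GRCh38.p14).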

Additional observations from a re-analysis of the deposited data

Results flagged for a closer look

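For 13 of the genes named, the change with siARID1A differed between YTHDF1 KO and WT cells by the interaction test of edgeR (17.1% of all genes tested did). Most of the genes named were picked for large changes in these same data or for likeness to the summed metallothioneins. Their count therefore cannot be weighed against the share of all genes. Among the metal-buffering genes, the change differed in this way for MT2A (interaction -0.71 on the log2 scale, adjusted p = 0.00836), whose fall was deeper in knockout cells.

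Among transporters and reductases of metals, the interaction was -0.75 for SLC39A8 (adjusted p = 0.000133), whose rise with siARID1A was smaller in knockout cells, and -0.41 for SLC39A11 (adjusted p = 0.0245). It was 0.64 for SLC31A1 (adjusted p = 7.04e-05), which fell with siARID1A in WT cells and did not pass the test in knockout cells, and -0.66 for STEAP2 (adjusted p = 0.000481). For the iron genes it was 0.70 for SLC40A1 (adjusted p = 0.00986) and 0.67 for CP, ceruloplasmin (adjusted p = 0.0376).

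Among stress and steroid responders it was -1.20 for HMOX1 (adjusted p = 3.27e-07), -1.39 for PGF, a growth factor that MTF1 is known to regulate (adjusted p = 0.00145), and -0.79 for GLUL, glutamine synthetase (adjusted p = 0.000643). HERPUD1, the neighbour on chromosome 16, had 0.46 (adjusted p = 0.0031), and TUBA1A, a tubulin among the genes most like the summed metallothioneins, had -0.46 (adjusted p = 0.0188). For ARID1A itself, the target of the siRNA, it was 0.38 (adjusted p = 0.0278), a smaller reduction in knockout cells.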

How the results depend on the processing

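Among recomputed values of the 5 genes tested, 489 kept their direction and their side of the threshold, 3 lost a call, 4 gained one and 39 changed sign, 38 of them for MTF1 near 0. The calls of MT2A in YTHDF1 KO (1.23 to 1.48), in siARID1A (-0.58 to -0.34), in both comparisons of the combined group with a single change and in the interaction held under all alternatives run, as did those of SLC30A1 against WT. The number of the 5 called lower in siARID1A was 1 in place of 2 with no filter on low counts, and 1 to 2 when a library was left out (1 without siARID1A replicate 2). In the combined group against WT, 2 in place of 1 were higher with unscaled library totals, and leaving out a library gave 1 to 2 higher (2 without WT replicate 1) and 1 to 2 lower (1 without combined replicate 3). Against siARID1A, the combined group had 2 higher with library totals, and 0 to 1 lower when a library was left out (1 without siARID1A replicate 2). Over all genes, calls lower in the combined group than in YTHDF1 KO were 2016, and 1303 to 2493 with a library left out (1303 without combined replicate 1). Library totals raised the share of calls that were higher from 48.5% to 61.2% in YTHDF1 KO and from 49.7% to 63.4% in the combined group against WT, from 53.5% to 63.5% against YTHDF1 KO and from 51.3% to 62.2% against siARID1A. The fit to only the groups compared was not run for the interaction, which needs all 4.

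For MTF1, which was called under none of these, the sign changed as follows. In YTHDF1 KO against WT it was 0.0779 with library totals, 0.00211 with no filter and -0.0962 to 0.0833 with a library left out. In siARID1A it was 0.0178 with RLE factors, 0.0565 with library totals, 0.0114 with no filter, 0.00609 with only the groups compared, 0.0179 with DESeq2 and -0.0550 to 0.0278 with a library left out. In the combined group against WT it was 0.00825 with RLE factors, 0.136 with library totals, 0.010 with no filter, 0.00837 with DESeq2 and -0.0348 to 0.0303 with a library left out. Against YTHDF1 KO it was -0.0847 to 0.0945 with a library left out. Against siARID1A it was -0.00959 with RLE factors, -0.00139 with no filter, -0.0121 with only the groups compared, -0.00952 with DESeq2 and -0.0285 to 0.0539 with a library left out. In the interaction it was -0.00281 with RLE factors, -0.0035 with no filter, -0.00271 with DESeq2 and -0.0773 to 0.103 with a library left out. The interaction of MT1F ran from -0.608 to 0.0514, and turned positive without siARID1A replicate 3. The cause of these changes was not tested.

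Libraries with the same replicate number did not deviate together (correlations from -0.042 to 0.033 over 18 pairs, 0 above 0.1, with the own number highest in 8). They were therefore not treated as paired, although such correlations cannot show whether they were handled together. With the replicate block, the interaction of MT2A was -0.70 (adjusted p = 0.00476), MTF1 in the combined group against WT was 0.000200, and no call of the 5 genes changed. The length used per kilobase, an alternative chosen after seeing the data, moved the WT level of MT1X from 0.898 to 3.54 and of MT1F from 0.641 to 1.75 CPM per kilobase. Depth limits MT1F and MT1X, with 14 to 73 counts per library.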

Other observations

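CP, the copper-carrying ferroxidase ceruloplasmin, read 5.86 ± 0.695 CPM in WT and 24.01 ± 5.99 in siARID1A, and 2.92 ± 0.371 in YTHDF1 KO and 19.0 ± 1.61 in the combined group. It rose with siARID1A (log2 fold change 2.04 ± 0.23, adjusted p = 1.03e-10), where MT2A fell, and fell in YTHDF1 KO (-1.003 ± 0.14, adjusted p = 3.49e-05), where MT2A rose. ACO1, the cytosolic aconitase that doubles as an iron sensor, fell from 118 ± 6.40 CPM in WT to 53.4 ± 1.79 in YTHDF1 KO and 44.2 ± 1.20 in the combined group (-1.15 ± 0.05 and -1.42 ± 0.05, adjusted p of 9.4e-13 and 1.27e-14).

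PGF read 1.12 ± 0.238 CPM in WT and 4.38 ± 0.836 in siARID1A, and 2.59 ± 0.0614 in YTHDF1 KO and 3.90 ± 0.256 in the combined group, and it rose against WT in each (log2 fold changes, with YTHDF1 KO first, siARID1A next and the combined group last, as in the following sentences, of 1.23 ± 0.18, 1.98 ± 0.25 and 1.82 ± 0.19, adjusted p of 7.06e-05, 6.11e-08 and 1.41e-07). GCLC, which makes the rate-limiting enzyme of glutathione synthesis, fell in each (-0.67 ± 0.05, -0.29 ± 0.04 and -0.81 ± 0.04, adjusted p of 5e-09, 0.000527 and 1.25e-10). GLUL rose in each (0.60 ± 0.10, 1.53 ± 0.08 and 1.34 ± 0.08, adjusted p of 0.000118, 5.42e-11 and 2.34e-10). STEAP2, a metal reductase, rose in each (0.26 ± 0.07, 0.74 ± 0.10 and 0.34 ± 0.09, adjusted p of 0.0197, 2.41e-07 and 0.00231). NUP93, the neighbour of the cluster beyond MT1X, fell with siARID1A (-0.28 ± 0.08, adjusted p = 0.00329).

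Even numbers made up 71.5% of the table's values from 1 to 10 and 60.8% of those from 11 to 100. Of the counts of MT2A, 4 of 12 were even, of MT1X 5 of 12 and of MT1F 12 of 12.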
